A study of Mus musculus with 78 samples.

Results

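The genes described here encode the enzymes and carriers of hepatic fatty acid oxidation, together with Ppara and several genes that its product is known to switch on. The list held 35 genes. A gene was followed through the probe set whose annotated symbol matched it exactly, and where several matched, through the one with the highest mean over 78 arrays. By this rule 34 of the 35 genes were found among 19938 genes on the array, and Acsl1 is not analysed here. The genes were read by step: 4 for carnitine-dependent import, 13 for mitochondrial oxidation, 10 for peroxisomal oxidation, 1 for ketone body formation (Bdh1), and 6 for the receptor and other target genes (Ppara, Pdk4, Vnn1, Cyp4a10, Cyp4a14 and Fabp1). All 34 passed the filter on low values in every comparison.

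Liver RNA came from 78 female mice, 1 Affymetrix array per mouse, in 18 groups. The age series (BALB/cNctr-Npc1m1N/J) compared Npc1-/- mice with Npc1+/+ littermates from crosses of Npc1+/- parents, 4 of each at 6 ages taken every 2 weeks from 1 to 11 weeks; pups had been weaned at 3 weeks and fed chow. The second set used Npc1+/+ BALB/cJ females of 12 weeks, 5 per group: untreated, fasted overnight, injected for 4 weeks with a control antisense oligonucleotide (oligo) or with one against Npc1, and both oligos again with the antioxidant N-acetyl-cysteine (NAC) over the same weeks. NPC1 carries cholesterol out of late endosomes and lysosomes, and Niemann-Pick disease type C is modelled in mice that lack it from conception in all tissues, whereas the oligo was given to adult animals for a limited time. Line, age, supplier and the handling of the 2 sets differ together and cannot be told apart.

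Fatty acids are activated to acyl-CoA, handed to carnitine by carnitine palmitoyltransferase 1 at the outer mitochondrial membrane, carried inward and shortened by repeated cycles of dehydrogenation, hydration, a second dehydrogenation and thiolysis. Peroxisomes run a parallel chain that takes very long and branched fatty acids and hands shortened acyl groups on as carnitine esters. During fasting the liver turns the resulting acetyl-CoA into ketone bodies. PPAR-alpha, the nuclear receptor encoded by Ppara, binds fatty acids and acts on DNA as a pair with RXR. It is known for switching on genes of all these steps, above all in hepatocytes.

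The labels were checked on Npc1 itself. Its level was lower in Npc1-/- mice at every age, from a log2 difference of -1.11 at 3 weeks to -1.72 at 9 weeks, and fell by 2.97 under the Npc1 oligo (adjusted p = 7.83e-15) and by 2.08 under it with NAC. The 10 hepatocyte markers were high on all arrays, with mean log2 levels between 12.34 and 12.93 per mouse. The 10 macrophage markers had mean levels of 6.56 to 6.67 in the 11-week Npc1+/+ mice and 9.31 to 9.53 in the Npc1-/- mice of that age, and all 10 rose there. Markers of skeletal muscle averaged 8.83 in 1 of the 1-week Npc1-/- mice (mouse 3) against 5.35 at the lowest of that group, and those of exocrine pancreas reached 8.37 among the 3-week Npc1+/+ mice (mice 1 and 2). Some values at these ages are also given without those arrays, and the others include them. Lesser marker levels of other organs were seen elsewhere and those arrays were kept. Among them, pancreatic markers averaged 6.03 in 11-week Npc1+/+ mouse 4 and 6.20 in fasted mouse 3. Muscle markers averaged 6.49 in 7-week Npc1+/+ mouse 3.

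Loss of Npc1 was followed by a broad fall of these genes at the later ages. At 11 weeks 29 of the 34 genes fell and 1, Cyp4a14, rose in Npc1-/- against Npc1+/+ mice (limma, Benjamini-Hochberg adjusted p under 0.05); of the 12638 genes tested 39.3% passed the same threshold, 18.8% higher and 20.5% lower. The median log2 difference of the 34 genes was -0.60, beside -0.02 over all genes. The falls spanned all steps, counting 2 of 4 import genes (median -0.46), 13 of 13 mitochondrial genes (-0.49), 10 of 10 peroxisomal genes (-0.79), Bdh1, and 3 of the 6 remaining genes. The 4 Npc1-/- mice did not contribute equally. The median of the 34 differences from the Npc1+/+ mean was -0.43, -0.43, -0.72 and -0.86 in Npc1-/- mice 1 to 4. Hepatocyte markers moved less over the same comparison (median -0.15, 4 of 10 lower), while the macrophage markers rose by a median of 2.68. The part of the added macrophage RNA in the falls was not tested, and in whole liver fewer cells of a type and less RNA per cell cannot be told apart.

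**Figure D1:**
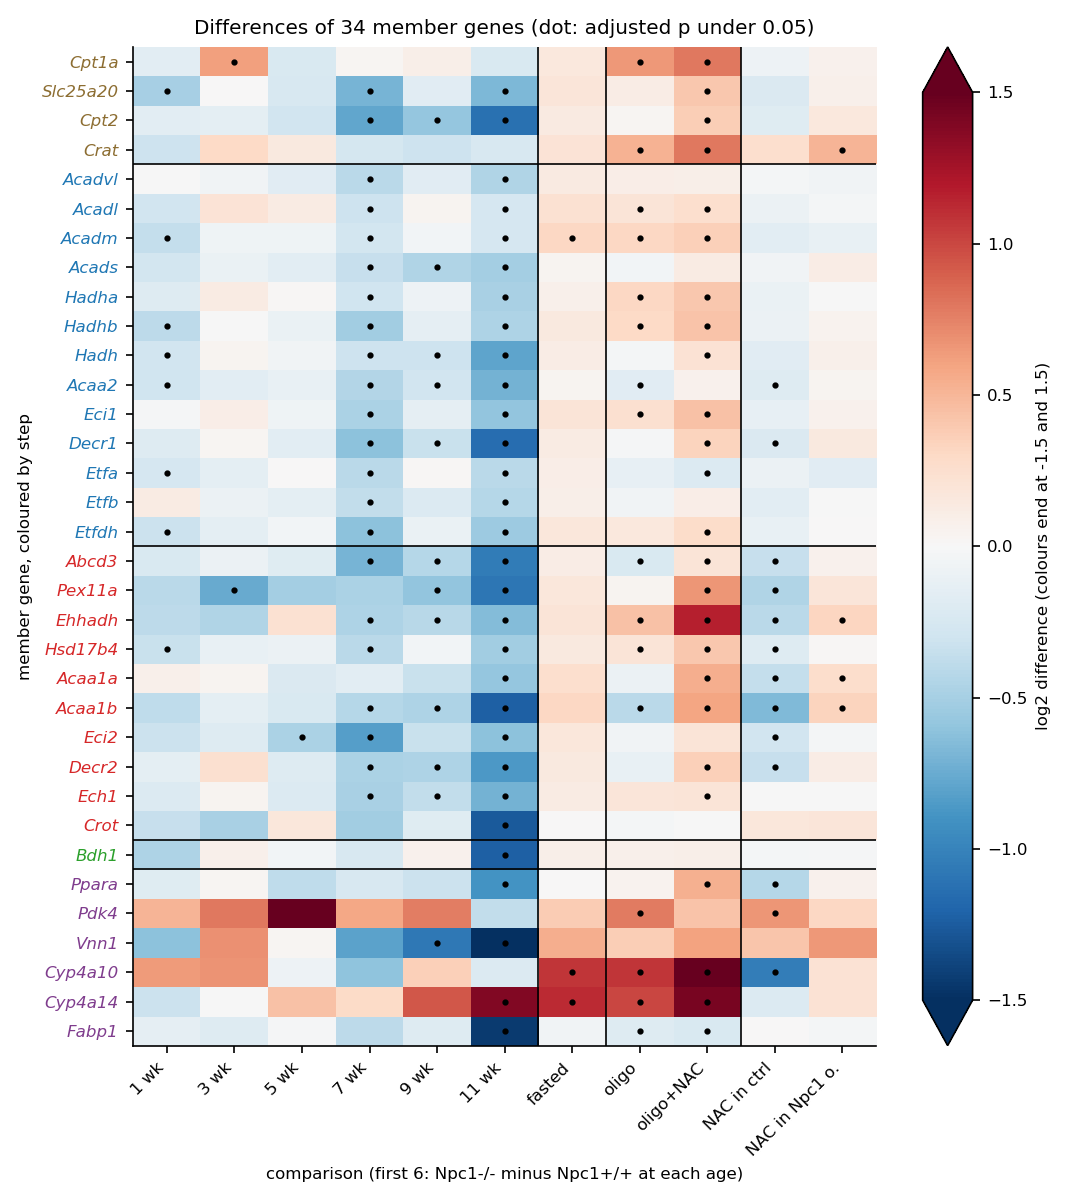
Log2 differences of the 34 genes (rows, ordered by step) in 11 comparisons (columns), with colour for the size and direction of the difference and a dot where the adjusted p was under 0.05. The columns for 7 and 11 weeks hold almost only falls, with 22 and 29 genes lower past the threshold and Cyp4a14 higher at 11 weeks, and the columns for the Npc1 oligo mostly rises, with 12 rises without NAC and 23 with it.

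The import step was split. Cpt2, which rebuilds acyl-CoA on the inner face of the inner membrane, read 10.09, 9.96, 10.13 and 10.40 in the 11-week Npc1+/+ mice and 9.09, 9.34, 8.90 and 8.78 in the Npc1-/- mice. The groups did not overlap, and Cpt2 fell by 1.12 on the log2 scale (SE 0.12, 2.17-fold, adjusted p = 6.15e-11). Slc25a20, the carrier that exchanges acylcarnitine for carnitine across the inner membrane, read between 10.13 and 10.60 in Npc1+/+ and between 9.51 and 9.89 in Npc1-/- mice, and fell by 0.67 (SE 0.13, adjusted p = 2.95e-05). Cpt1a, the liver form of the enzyme that commits fatty acids to the mitochondrion, did not pass the test at this age. Its levels were 11.17, 11.08, 11.13 and 10.80 in Npc1+/+ and 11.06, 11.23, 10.71 and 10.27 in Npc1-/- mice, which overlapped (difference -0.23, 95% interval -0.59 to 0.13, adjusted p = 0.334). Crat, which moves short acyl groups onto carnitine, differed by -0.24 (interval -0.54 to 0.06).

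In the mitochondrial chain every gene fell at 11 weeks, by between 0.25 and 1.14. Decr1, the 2,4-dienoyl-CoA reductase needed for polyunsaturated fatty acids, read 10.53, 10.25, 10.32 and 10.50 in Npc1+/+ and 9.62, 9.53, 9.02 and 8.85 in Npc1-/- mice, a fall of 1.14 (SE 0.12, 2.21-fold, adjusted p = 8.42e-11). Hadh, the dehydrogenase of medium and short chains, fell by 0.80 (SE 0.09) and Acaa2, the mitochondrial thiolase, by 0.71 (SE 0.07), both without overlap between the groups. Hadha, a subunit of the trifunctional protein that handles long chains, read 10.99, 10.88, 10.78 and 11.02 in Npc1+/+ and 10.58, 10.56, 10.36 and 10.20 in Npc1-/- mice, and fell by 0.49 (SE 0.07, 1.41-fold, adjusted p = 5.66e-07). Its partner subunit Hadhb fell by 0.46, and the isomerase Eci1, which shifts double bonds of unsaturated chains, by 0.59. Of the acyl-CoA dehydrogenases, Acads (short chain) fell by 0.51 and Acadvl (very long chain) by 0.45, more than Acadl (long chain) and Acadm (medium chain), at 0.25 each. The last 2 calls rested on single mice: without Npc1-/- mouse 4 Acadl differed by -0.11 (adjusted p = 0.3) and Acadm by -0.20 (adjusted p = 0.117), and without Npc1+/+ mouse 4 or mouse 1 both also missed the threshold, as Acadm did without Npc1-/- mouse 3 (adjusted p = 0.0527 to 0.119 over these omissions). Etfa, Etfb and Etfdh, which pass electrons from the dehydrogenases to the respiratory chain, fell by 0.40, 0.43 and 0.55.

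Peroxisomal genes fell furthest as a group. Abcd3, a transporter that brings acyl-CoA into the peroxisome, read 11.76, 11.44, 11.41 and 11.73 in 11-week Npc1+/+ mice and 10.75, 10.69, 10.41 and 10.28 in Npc1-/- mice, a fall of 1.05 (SE 0.10, 2.08-fold, adjusted p = 9.79e-12). Crot, which forms carnitine esters of the shortened chains for export, read 12.02, 12.03, 11.38 and 12.35 against 11.24, 11.03, 10.62 and 9.82, and fell by 1.26 (SE 0.21, 2.40-fold, adjusted p = 2.34e-06). In neither gene did the 2 genotypes overlap. Acaa1b and Acaa1a, the peroxisomal thiolases, fell by 1.23 (SE 0.15) and 0.58 (SE 0.13); the pair is near-identical in sequence, and how far each probe set also reads the other gene is unknown here. Pex11a, a membrane protein of peroxisome division, fell by 1.08, and the auxiliary enzymes for unsaturated chains Decr2, Ech1 (also found in mitochondria) and Eci2 by 0.87, 0.71 and 0.62. Ehhadh, the bifunctional enzyme of straight chains, read 11.09, 10.79, 11.03 and 11.59 in Npc1+/+ and 10.82, 10.94, 10.31 and 9.83 in Npc1-/- mice. These ranges overlapped, yet Ehhadh fell by 0.65 (SE 0.16, adjusted p = 0.00114), and Hsd17b4, the bifunctional enzyme that also takes branched chains, fell by 0.52 (SE 0.07).

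Bdh1 makes 3-hydroxybutyrate, the main circulating ketone body, and was the only gene of the list at that step. It read 10.78, 10.69, 10.62 and 10.57 in 11-week Npc1+/+ mice and 10.17, 10.23, 9.99 and 7.38 in Npc1-/- mice. The fall of 1.22 (SE 0.27, adjusted p = 0.000276) was set in size by Npc1-/- mouse 4: without it Bdh1 fell by 0.53 (adjusted p = 3.59e-06). With only the 8 compared arrays in the fit the difference of -1.22 did not pass (adjusted p = 0.081).

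Ppara itself read 10.58, 10.46, 10.44 and 10.34 in the 11-week Npc1+/+ mice and 9.94, 9.85, 9.68 and 8.79 in the Npc1-/- mice. It fell by 0.89 (SE 0.18, 1.86-fold, adjusted p = 9.36e-05), with no overlap. Vnn1, the pantetheinase that recycles the precursor of coenzyme A and a known PPAR-alpha target, fell most of the 34 genes, from 8.35, 7.87, 8.42 and 9.09 to 6.76, 7.46, 6.51 and 5.82 (difference -1.79, SE 0.32, 3.47-fold, adjusted p = 1.4e-05). Fabp1, the fatty acid binding protein of the hepatocyte cytosol, read 12.99, 12.90, 13.05 and 12.88 against 12.07, 12.14, 11.81 and 10.07. Its fall of 1.43 (SE 0.20, 2.70-fold, adjusted p = 9.9e-08) became 0.95 without Npc1-/- mouse 4 and remained past the threshold. Cyp4a14, a microsomal omega-hydroxylase of fatty acids that PPAR-alpha agonists strongly raise, went the other way, from 11.09, 9.33, 9.71 and 11.68 to 11.87, 12.08, 11.60 and 11.81. The rise of 1.39 (SE 0.38, 2.61-fold, adjusted p = 0.00311) came with wide spread in the Npc1+/+ mice, of which mouse 4 overlapped the Npc1-/- range. Its paralog Cyp4a10 differed by -0.20 (adjusted p = 0.595), and the probe sets of this gene family may read each other. Pdk4, the kinase that shuts off pyruvate dehydrogenase, differed by -0.37 (interval -1.54 to 0.79), with 3 Npc1+/+ mice between 5.89 and 6.46 and mouse 4 at 9.20.

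**Figure D2:**
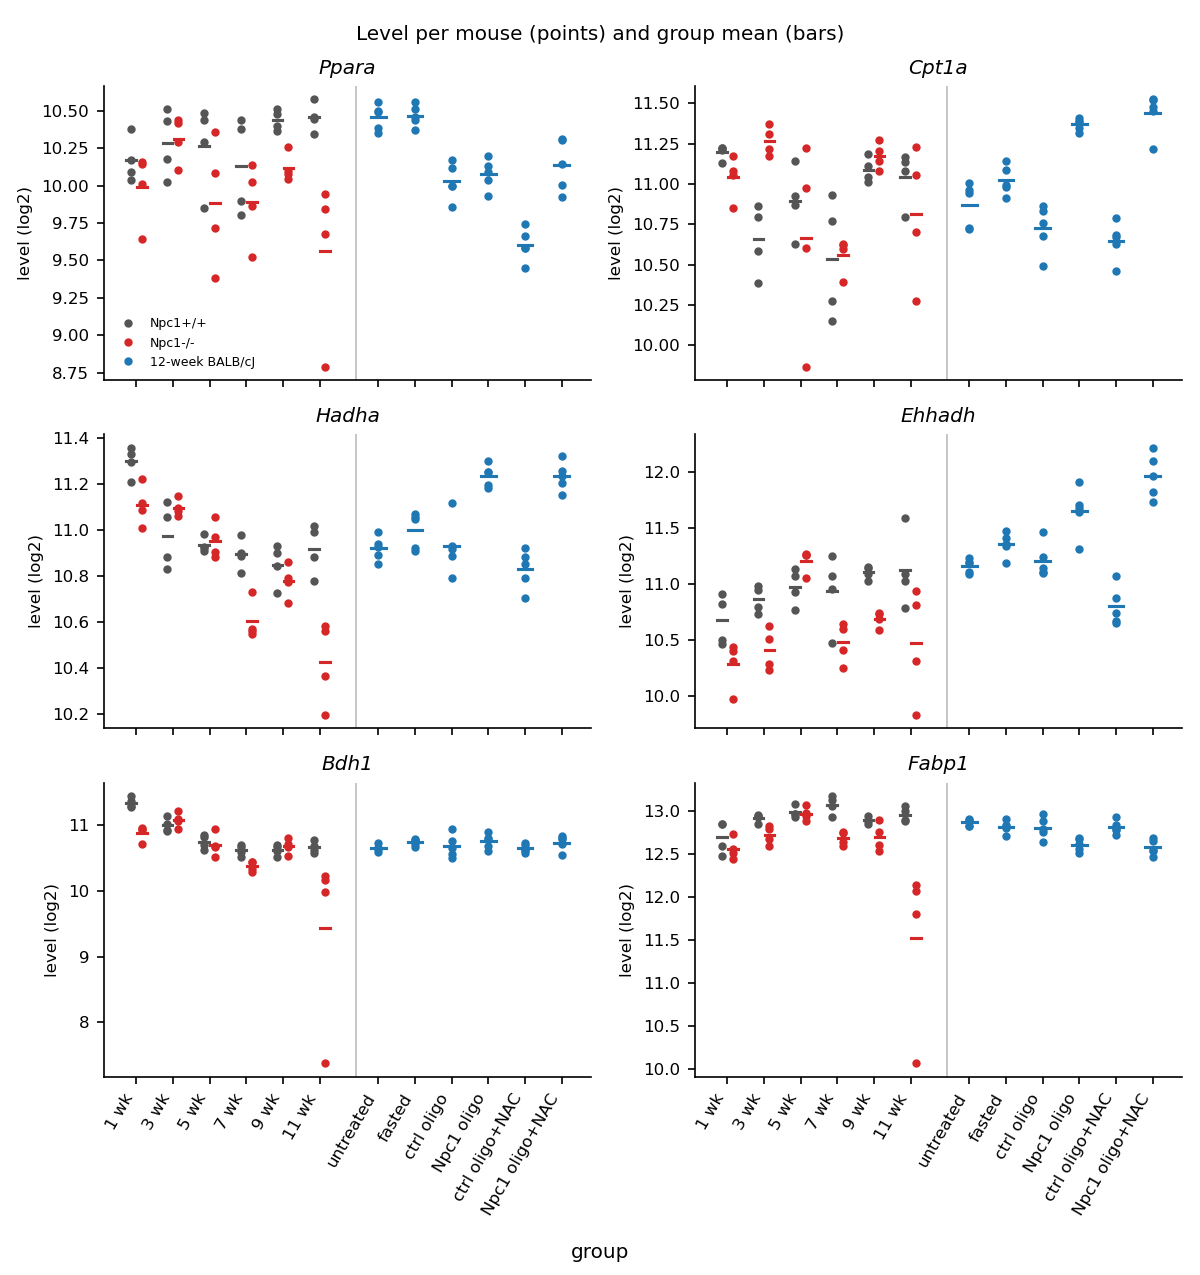
Log2 level of Ppara, Cpt1a, Hadha, Ehhadh, Bdh1 and Fabp1 in each mouse of the 18 groups (points), with group means as bars. In the 11-week Npc1-/- group mouse 4 lies apart at 7.38 for Bdh1 and 10.07 for Fabp1, while the levels of Cpt1a in both genotypes overlap.

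The promoter of Fabp1 is shown because it alone, among the 27 genes searched, matched a loosened form of the motif of PPAR-alpha and RXR. That motif is a direct repeat of 2 half-sites spaced by 1 base. Of the 34 genes, 27 had an entry in RefSeq's promoter windows (GRCm38.p6, 250 bases before to 50 after the start). Both strands were searched for AGGTCANAGGTCA, which no member held and 0.0396% of 32851 windows did, and for the looser AGGNCANAGGNCA, which Fabp1 and 0.381% of windows held. The half-site AGGTCA alone, which overlaps these motifs, was found in Cpt1a, Acadvl, Acadm and Fabp1 and in 16.3% of windows. Counted by gene, as the members are, the shares of 27025 genes were 0.0481% (exact repeat), 0.451% (looser repeat) and 18.1% (half-site). The Fabp1 window on chr6:71199629-71199878 (plus strand, GRCm38.p6, 250 bases before the start) follows, with the looser repeat, read on the opposite strand, in capitals at -67 to -55 from the start.
Fabp1: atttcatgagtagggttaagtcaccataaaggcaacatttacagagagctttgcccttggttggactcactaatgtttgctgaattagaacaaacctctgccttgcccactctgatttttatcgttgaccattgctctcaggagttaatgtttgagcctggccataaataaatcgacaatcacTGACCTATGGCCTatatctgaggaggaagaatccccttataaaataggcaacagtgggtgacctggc
A match describes letters in this window and is no evidence of binding, and no match says nothing of the receptor at the other genes.

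The falls were not steady with age. At 1 week 8 of the 34 genes fell and none rose in Npc1-/- mice (median -0.28; 5.69% of all genes tested were called, 2.91% higher and 2.78% lower; 17 genes had an unadjusted p under 0.05), 6 of them mitochondrial. Hadhb fell by 0.39 (adjusted p = 0.00559), Acaa2 by 0.30 and the peroxisomal Hsd17b4 by 0.33 (adjusted p = 0.0027). Without Npc1-/- mouse 3, the array with muscle markers, 3 calls remained in number, and without Npc1+/+ mice 3 and 4 there were 5, Hadhb then differing by -0.35 (adjusted p = 0.135). At 3 weeks 1 gene rose and 1 fell (15.7% of all genes called, 8.9% higher and 6.84% lower). Cpt1a read 10.59, 10.39, 10.80 and 10.86 in Npc1+/+ and 11.37, 11.17, 11.31 and 11.21 in Npc1-/- mice, a rise of 0.61 (adjusted p = 0.0139). Without Npc1+/+ mice 1 and 2, the arrays with pancreatic markers, it differed by 0.44 (adjusted p = 0.249), and without mouse 2 alone by 0.52 (adjusted p = 0.0706). Pex11a fell by 0.75 at this age. Macrophage marker means per mouse were 7.73 to 8.11 in Npc1-/- against 6.35 to 6.73 in Npc1+/+ mice at 3 weeks. They were 8.04 to 8.47 against 6.44 to 6.59 at 5 weeks. Hepatocyte marker means at 3 weeks were 12.38 to 12.72 against 12.80 to 12.93, and the part of these cells was not tested. At 5 weeks only Eci2 was called, lower by 0.47 (adjusted p = 0.0271; 12.6% of all genes called, 9.69% higher and 2.88% lower), and it missed the threshold without Npc1-/- mouse 2 or 3 or Npc1+/+ mouse 2 (differences of -0.34 to -0.42, adjusted p = 0.0898 to 0.181) or with only the compared groups in the fit (adjusted p = 0.106).

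At 7 weeks 22 genes fell and none rose (25.3% of all genes called, 14.3% higher and 11% lower), with a median of -0.41 and again 13 of 13 mitochondrial genes. Macrophage markers rose in 9 of 10 at this age (median 1.94; mouse means of 8.92 to 9.08 against 6.51 to 6.61) and in 10 of 10 at 9 weeks (median 2.36; 9.14 to 9.47 against 6.49 to 6.68), and their part in the falls was not tested. Hepatocyte markers had medians of -0.07 and 0.06. Eci2 fell by 0.82 (SE 0.15), Cpt2 by 0.79 (SE 0.12, adjusted p = 6.48e-07), Slc25a20 and Abcd3 by 0.70 each, and Hadha by 0.29 (adjusted p = 0.00225). Ehhadh differed by -0.46 (adjusted p = 0.0328) and lost its call without any of 5 of the 8 mice, Npc1-/- mice 1 and 3 and Npc1+/+ mice 2, 3 and 4 (adjusted p = 0.0601 to 0.155). Ppara (-0.24), Bdh1 (-0.24) and Fabp1 (-0.39) did not pass the test at 7 weeks. At 9 weeks the count was 12 lower and none higher (33.2% of all genes called, 17.6% higher and 15.5% lower; median -0.20), with 4 of 13 mitochondrial and 6 of 10 peroxisomal genes. Cpt2 fell by 0.58 (adjusted p = 9.77e-05) and Abcd3 by 0.43 (adjusted p = 0.001), whereas Hadha read 10.84, 10.93, 10.73 and 10.90 in Npc1+/+ against 10.86, 10.79, 10.68 and 10.78 in Npc1-/- mice, which overlapped. Vnn1 fell by 1.08 (adjusted p = 0.00859) and differed by -0.80 without Npc1+/+ mouse 4 (adjusted p = 0.0669).

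**Figure D3:**
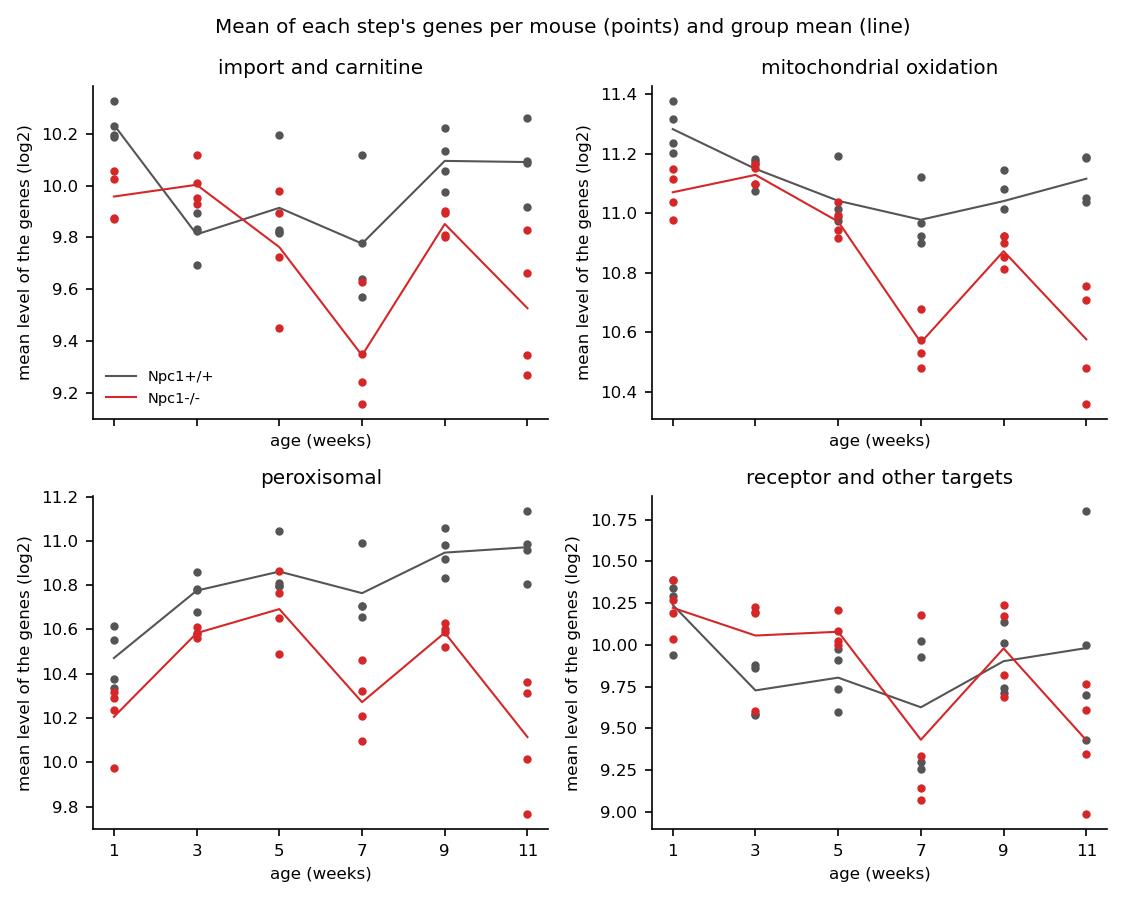
Mean log2 level of the genes of each step in each mouse (points) by age in weeks for both genotypes, with lines through the group means. The peroxisomal mean lay between 10.81 and 11.13 in 11-week Npc1+/+ mice and between 9.77 and 10.36 in Npc1-/- mice, and the mitochondrial mean between 11.04 and 11.19 against 10.36 and 10.76.

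The genotype difference itself varied with age in 24 of the 34 genes (moderated F test over the 6 ages, adjusted p under 0.05; 27.7% of all genes tested). Abcd3 (F = 13.1), Decr1 (F = 12.5), Cpt2 and Decr2 (F = 11.3 each) varied most, and Ppara did not pass (F = 2.85, adjusted p = 0.0806). Over the mean of the 6 ages 28 genes fell and 2 rose (52.6% of all genes called, 26% higher and 26.6% lower), with a median of -0.30. Pex11a fell by 0.63 (adjusted p = 2.18e-08), Cpt2 by 0.51 and Ppara by 0.33, and the 2 rises were Pdk4 (0.65, adjusted p = 0.0179) and Cyp4a14 (0.45, adjusted p = 0.0136). Cpt1a differed by 0.02 on this average.

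Age was followed within each genotype, and the total counts for the steps from 1 to 3 and from 3 to 5 weeks lay near the shares of all genes called. In Npc1+/+ mice 23 of the 34 genes varied with age (53.3% of all genes called), mostly between 1 and 3 weeks. Over that step 5 rose and 10 fell (36.9% of all genes called, 15.4% higher and 21.5% lower). Pex11a rose by 1.72 (adjusted p = 5.57e-09), from 7.83, 7.77, 7.78 and 7.41 to 9.38, 9.32, 9.63 and 9.34, and Eci2 by 0.66. Pdk4 fell by 1.90, from 8.98, 8.58, 7.91 and 8.53 to 6.34, 6.47, 6.73 and 6.88, and Vnn1 by 1.16. Without the 3-week mice 1 and 2 Pdk4 differed by -1.69 (adjusted p = 0.0711), and without the 1-week mice 3 and 4 Eci2 differed by 0.46 (adjusted p = 0.0513). Acadvl and Etfb, called higher by 0.30 and 0.24, turned to -0.03 and -0.02 without the 1-week Npc1+/+ mice 3 and 4. In Npc1-/- mice over the same weeks 7 genes rose and 2 fell (25.8% of all genes called, 11% higher and 14.8% lower). Pex11a rose by 1.37, Eci2 by 0.79 and Hsd17b4 by 0.53 (adjusted p = 1.38e-07), Crot fell by 0.67 (lost without the 3-week mouse 1, adjusted p = 0.1) and Pdk4 by 1.62 (lost without any 1 of 1-week mice 2, 3 and 4 and 3-week mice 1 and 4, adjusted p up to 0.117). The change from 1 to 3 weeks differed between the genotypes in 1 gene, Acadl (2.01% of all genes called, 1.53% higher and 0.483% lower). It was more positive in Npc1-/- mice by 0.48 (SE 0.13, adjusted p = 0.0344), and 11 of the 16 single omissions took adjusted p to between 0.0508 and 0.0879. The mean level of erythroid markers went from 7.30 at 1 week to 6.27 at 3 weeks in Npc1+/+ mice. In Npc1-/- mice it went from 7.53 to 6.71, and the part of these cells in the changes was not tested. From 3 to 5 weeks 1 gene rose and 1 fell in each genotype. In Npc1+/+ mice (6.55% of all genes called, 2.82% higher and 3.73% lower) Cyp4a10 rose by 1.06, or differed by 0.85 without the 3-week mice 1 and 2 (adjusted p = 0.146), and Etfa fell by 0.27, lost without 3-week mouse 3 or 4 or 5-week mouse 1 or 4 (adjusted p up to 0.0658). In Npc1-/- mice (5.25% of all genes called, 3.35% higher and 1.9% lower) Ehhadh rose by 0.80 (adjusted p = 0.00106) and Cpt1a fell by 0.60 (adjusted p = 0.0349). That fall of Cpt1a became -0.33 without 5-week mouse 3 (adjusted p = 0.293) and was also lost without 5-week mouse 2 or any one 3-week mouse. This step did not differ between the genotypes in any of the 34 genes by limma (0.799% of all genes called, 0.57% higher and 0.229% lower; 4 of the 34 had an unadjusted p under 0.05). Between 5 and 11 weeks 0 genes passed in Npc1+/+ mice by limma (0.19% of all genes called, 0.103% higher and 0.087% lower; 2 of the 34 had an unadjusted p under 0.05), while in Npc1-/- mice 24 fell and none rose (25.3% of all genes called, 12.9% higher and 12.5% lower; median -0.40). The latter fall was led by Fabp1 (-1.44), Crot (-1.35), Vnn1 (-1.34) and Bdh1 (-1.26), of which Fabp1 and Bdh1 became -0.96 and -0.57 without the 11-week mouse 4.

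The other genes of the pathway were counted at 11 weeks, where 18.8% of all genes tested were called higher and 20.5% lower. Of 31 other peroxisomal genes tested, 1 rose and 23 fell; the list as written also held Pmp22, a myelin protein gene and not a peroxisomal one, which rose by 2.18 and brings the count to 2 and 23 of 32. Nudt7, a hydrolase of peroxisomal coenzyme A, fell by 2.09 (SE 0.24), and Acot3 and Acot4, peroxisomal thioesterases, by 1.82 and 1.25. Of 17 other mitochondrial genes 1 rose and 10 fell, led by the medium-chain synthetase gene Acsm1 (-1.32) and the carnitine transporter gene Slc22a5 (-1.19). Of 5 other ketone body genes 1 rose and 3 fell. Bdh2 (-1.48) and Acat1 (-1.01) fell, the transporter gene Slc16a1 fell by 0.56 (adjusted p = 0.0377, lost without any 1 of Npc1-/- mice 2, 3 and 4 and Npc1+/+ mice 1 and 4, with a difference of -0.23 and adjusted p = 0.392 without the last) and Oxct1, the enzyme that lets tissues other than hepatocytes burn ketone bodies, rose by 2.16 (SE 0.10). Of 34 partners and further targets of PPAR-alpha 5 rose and 16 fell: the lipolysis inhibitor gene G0s2 fell by 2.25 and Acot1 by 1.83, whereas Cd36, a fatty acid receptor that macrophages also carry, rose by 2.18 and Pparg by 1.56.

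Overnight fasting, known to activate PPAR-alpha, gave few calls among these genes, with most differences small and above 0. All were read in the same 10 mice, so the shared direction is not independent from gene to gene. In fasted against untreated mice 3 of the 34 genes rose and none fell, where 0.529% of 11900 genes tested were called (0.21% higher, 0.319% lower), and 33 of the 34 differences were above 0 with a median of 0.15 (all genes -0.02). Cyp4a14 read 10.44, 11.18, 10.82, 9.92 and 11.24 in untreated and 11.65, 11.87, 11.86, 12.08 and 11.74 in fasted mice, without overlap, and rose by 1.12 (SE 0.19, 2.17-fold, adjusted p = 0.00417). Cyp4a10 rose by 1.07 (SE 0.22, adjusted p = 0.0131), a call lost without untreated mouse 4 (adjusted p = 0.0646) or fasted mouse 4 (adjusted p = 0.0539). Acadm rose by 0.31 (adjusted p = 0.0274), lost without any of 7 of the 10 mice (untreated 1, 3 or 4, fasted 2, 3, 4 or 5; adjusted p up to 0.126). Cpt1a (0.15, interval 0.00 to 0.31), Pdk4 (0.38) and Ppara (0.01, interval -0.14 to 0.16) did not pass, and the levels of Ppara overlapped at 10.35 to 10.56 in untreated and 10.37 to 10.56 in fasted mice. Among the partners and further targets 5 of 33 rose, including Txnip (1.08), Vldlr (0.80), Cyp4a31 (1.07) and Cd36 (0.82), of which Cyp4a31 lost its call without untreated mouse 4 or fasted mouse 4 or 5 and Cd36 without untreated mouse 4 or 5 or fasted mouse 4 (adjusted p up to 0.0741). Nudt7 fell by 0.60.

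The control oligo was compared with no treatment, since it is the background of the Npc1 oligo. Against untreated mice 7 genes rose and 1 fell (26.3% of all genes called, 5.05% higher and 21.3% lower). Ppara was the one that fell, by 0.43 (adjusted p = 0.000139), from between 10.35 and 10.56 to between 9.86 and 10.17, while Cyp4a14, Pdk4 and Cyp4a10 rose by 0.89, 0.85 and 0.81. Of 9 macrophage markers tested 6 rose in the same comparison (median 0.62), and their part in these values was not tested.

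When Npc1 was lowered in adult liver, more of these genes rose than fell. Against the control oligo the Npc1 oligo raised 12 genes and lowered 4 (22.6% of all genes called, 14.7% higher and 7.88% lower), with a median of 0.09. Cpt1a read 10.86, 10.49, 10.68, 10.83 and 10.76 under the control oligo and 11.39, 11.38, 11.41, 11.35 and 11.32 under the Npc1 oligo, a rise of 0.65 (SE 0.08, 1.56-fold, adjusted p = 2.56e-07) with no overlap. Cyp4a10 read 10.59, 9.94, 10.23, 10.42 and 10.41 against 11.46, 11.58, 11.16, 11.29 and 11.45, and rose by 1.07 (SE 0.22, adjusted p = 0.000609). Cyp4a14 rose by 1.00 (adjusted p = 0.000271), Pdk4 by 0.77, Crat by 0.53 and Ehhadh by 0.44 (SE 0.10, adjusted p = 0.00135). In the mitochondrion 5 of 13 genes rose, among them Hadha (0.31, adjusted p = 0.000226), Acadm (0.31) and Hadhb (0.30), and Acaa2 fell by 0.17, a call lost without Npc1 oligo mouse 5 (adjusted p = 0.0517).

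Of the 10 peroxisomal genes 2 rose and 2 fell under the Npc1 oligo, counts near the shares of all genes called (14.7% higher and 7.88% lower). Acaa1b read 11.52, 11.10, 11.18, 11.06 and 11.23 under the control oligo and 10.68, 10.78, 11.01, 10.89 and 10.72 under the Npc1 oligo, a fall of 0.40 (SE 0.10, adjusted p = 0.00532). Abcd3 fell by 0.23 (adjusted p = 0.0176), a call lost without control oligo mouse 1 (adjusted p = 0.0551) or Npc1 oligo mouse 5 (adjusted p = 0.065), and Fabp1 by 0.20 (adjusted p = 0.0166), lost without control oligo mouse 5 or Npc1 oligo mouse 2 (adjusted p = 0.0648 and 0.0509). Ppara (0.05, interval -0.11 to 0.20) and Bdh1 (0.07, interval -0.07 to 0.22) did not pass the test. Of the partners and further targets 10 of 33 rose and 4 fell, led by the lipid droplet gene Cidec (1.63) and the hepatic hormone gene Fgf21 (1.37). Of the other peroxisomal genes Nudt7 fell by 1.36 and Hacl1, which shortens branched chains, by 0.62. Macrophage markers rose in 6 of 9 (median 1.38; mouse means of 8.18 to 9.00 against 7.26 to 7.55), hepatocyte markers had a median of 0.01, and the part of these cells in the values was not tested.

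**Figure D4:**
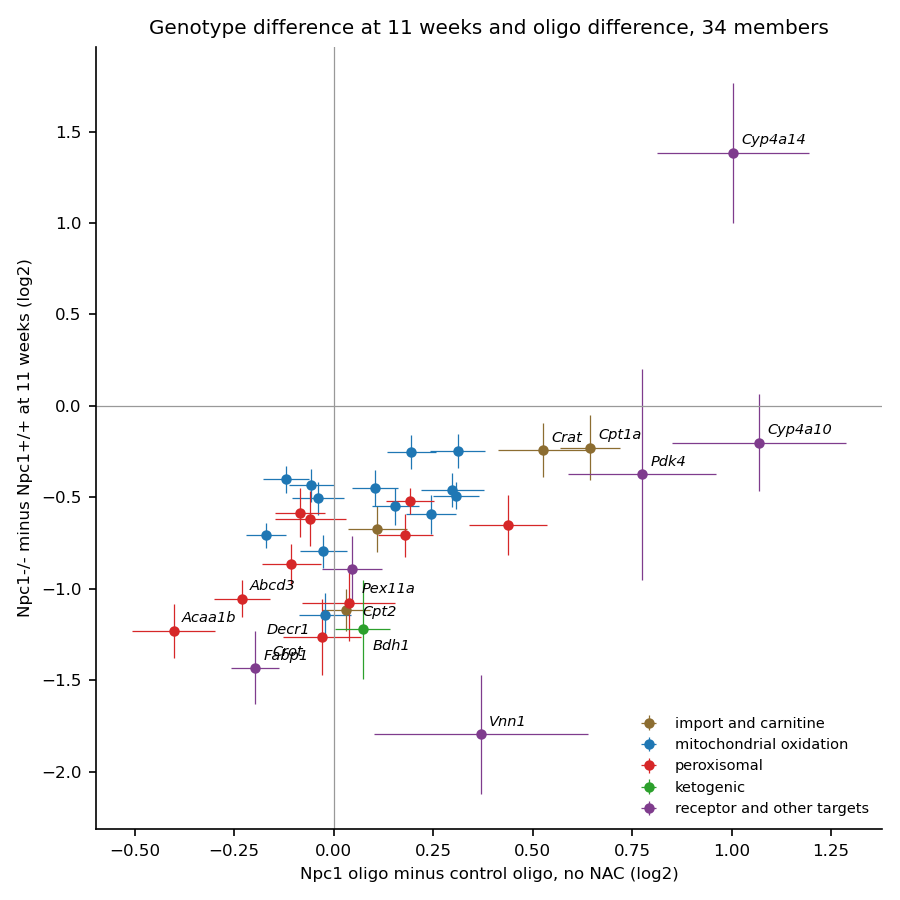
Log2 difference of each of the 34 genes between Npc1-/- and Npc1+/+ mice at 11 weeks against its difference between Npc1 oligo and control oligo without NAC, with SE bars, points coloured by step. Most genes lie below 0 on the genotype axis, where 29 fell, and near or above 0 on the oligo axis, where 12 rose.

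With NAC given alongside, the Npc1 oligo raised 23 of the 34 genes and lowered 2 (25.7% of all genes called, 11% higher and 14.7% lower; median 0.36). All 4 import genes and 8 of the 10 peroxisomal genes of the list rose. Of 31 other peroxisomal genes tested 7 rose and 7 fell, among them Acot3 (0.99) and Nudt7 (-1.09). Cyp4a10 read 9.85, 8.62, 8.75, 8.80 and 10.39 under control oligo with NAC and 11.83, 11.86, 11.32, 11.53 and 11.48 under Npc1 oligo with NAC, a rise of 2.32 (SE 0.22, 5.01-fold, adjusted p = 3.12e-09). Ehhadh read 10.88, 10.66, 10.74, 10.67 and 11.07 against 12.10, 12.22, 11.82, 11.96 and 11.73, and rose by 1.16 (SE 0.10, 2.24-fold, adjusted p = 3e-10). Neither gene overlapped between the groups. Cpt1a rose by 0.79 (SE 0.08), Crat by 0.79, Pex11a by 0.66, Acaa1b by 0.59, Ppara by 0.53 (adjusted p = 3.23e-06) and Hadha by 0.40, while Etfa fell by 0.20 and Fabp1 by 0.23 (adjusted p = 0.00446). Bdh1 differed by 0.09 (interval -0.06 to 0.23). Of the partners and further targets 14 of 33 rose and 7 fell, with Cyp4a31 (2.25), Cidec (2.15), Cd36 (1.57) and Acot1 (1.40) in front. The mitochondrial thioesterase gene Acot2 rose by 1.79. Macrophage markers rose in 5 of 9 (median 1.17; mouse means of 7.58 to 9.08 against 7.22 to 7.63, with mouse 3 the lowest), 5 of 10 hepatocyte markers fell (median -0.15; 12.45 to 12.62 against 12.70 to 12.85), and their part in these values was not tested.

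The difference between mice with and without NAC had a median below 0 under the control oligo and above 0 under the Npc1 oligo. Under the control oligo 12 genes were lower with NAC and 1 higher (8.5% of all genes called, 6.09% higher and 2.41% lower; median -0.15), 8 of them peroxisomal. Acaa1b fell from 11.52, 11.10, 11.18, 11.06 and 11.23 to 10.69, 10.52, 10.31, 10.61 and 10.69 (difference -0.66, SE 0.10, adjusted p = 0.000176). Ppara fell from 10.12, 9.86, 10.00, 10.17 and 10.00 to 9.66, 9.58, 9.45, 9.58 and 9.75 (difference -0.43, SE 0.08, adjusted p = 0.000534), and Cyp4a10 fell by 1.04 and Ehhadh by 0.41. Acaa1b and Ppara did not overlap between these groups. The sole rise was Pdk4 (0.67), lost without control oligo mouse 5 or NAC-treated mouse 1 or 2 (adjusted p = 0.0576 to 0.0727). Under the Npc1 oligo 4 genes were higher with NAC and none lower (7.15% of all genes called, 2.88% higher and 4.27% lower; median 0.07): Crat by 0.51 (adjusted p = 0.00398), Acaa1a by 0.27, and Acaa1b and Ehhadh by 0.34 and 0.32. The last 2 calls were each lost without any 1 of 7 of the 10 mice, Npc1 oligo mice 1, 2, 4 or 5 and, of those with NAC, mice 1 or 2, mouse 5 for Acaa1b or mouse 4 for Ehhadh (differences of 0.23 to 0.36, adjusted p = 0.0516 to 0.164).

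The difference between these effects was tested as an interaction. In 10 genes the Npc1 oligo effect was more positive with NAC than without, and in none less (4.83% of all genes called, 1.15% higher and 3.68% lower; median 0.22, all genes -0.03). The 10 were 6 peroxisomal genes, Acaa1b (0.99, SE 0.15, adjusted p = 0.00018), Ehhadh (0.73, SE 0.14, adjusted p = 0.00256), Acaa1a (0.63, adjusted p = 0.000107), Pex11a (0.63), Decr2 (0.46) and Abcd3 (0.42), together with Cyp4a10 (1.25), Ppara (0.49, SE 0.11, adjusted p = 0.00757), Decr1 (0.36) and Cpt2 (0.34). The call on Pex11a was lost without control oligo mouse 4 (adjusted p = 0.0504) or Npc1 oligo mouse 5 (adjusted p = 0.0521). With only the 4 oligo groups in the fit Abcd3, Cpt2, Cyp4a10, Decr1 and Pex11a missed the threshold (adjusted p = 0.0503 to 0.0708). Npc1 itself moved with these values: NAC lowered it by 1.03 under the control oligo (adjusted p = 6.05e-05), to between 8.77 and 9.96 from between 9.98 and 10.36. Its part in the interaction was not tested. No macrophage marker was called for NAC under either oligo, and 4 of 10 hepatocyte markers were lower with NAC under the Npc1 oligo (median -0.15).

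**Figure D5:**
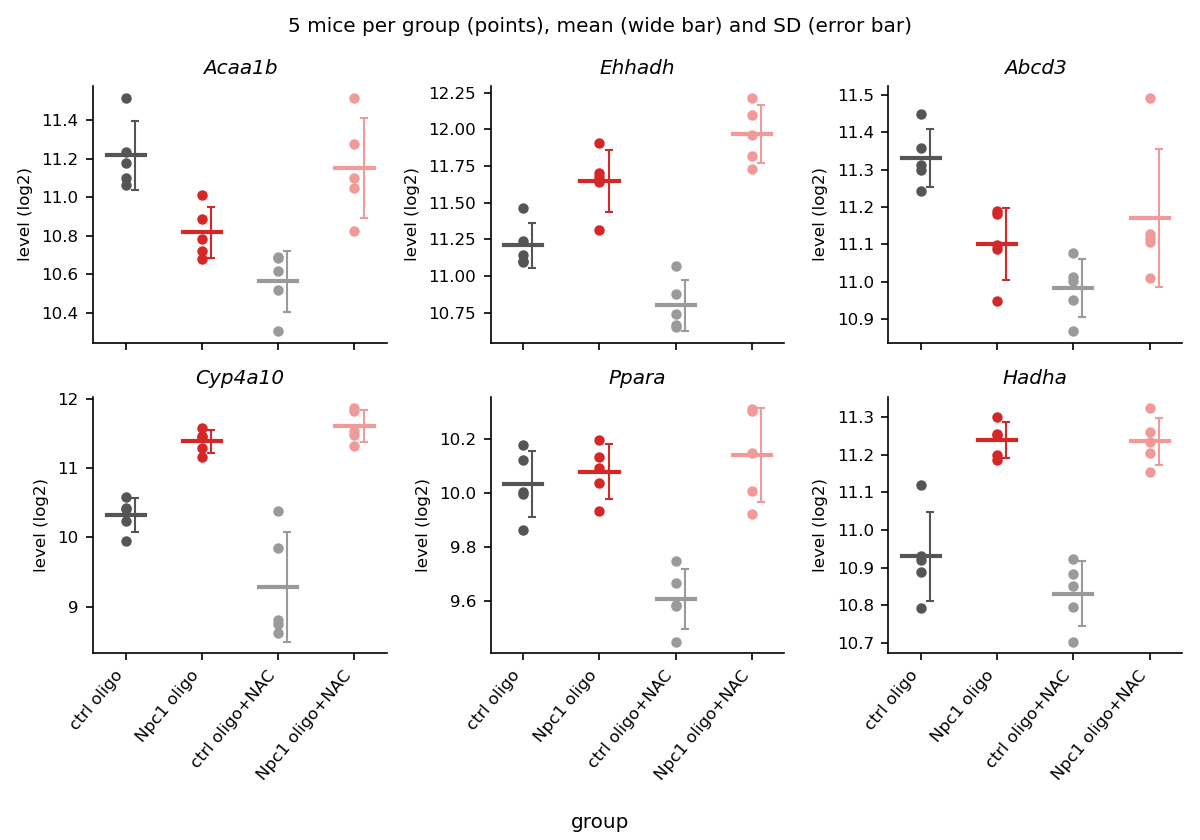
Log2 level of Acaa1b, Ehhadh, Abcd3, Cyp4a10, Ppara and Hadha in each of the 5 mice (points) of the 4 oligo groups, with the mean and SD as bars. For Acaa1b the control oligo mice fall from between 11.06 and 11.52 to between 10.31 and 10.69 with NAC, and the Npc1 oligo mice move from between 10.68 and 11.01 to between 10.83 and 11.52.

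The inherited loss of Npc1 and its lowering by the oligo were set against each other last. In a fit of all 78 arrays the 11-week genotype difference was more negative than the Npc1 oligo difference without NAC in 32 of the 34 genes and more positive in none (27.7% of 12748 genes called, 11.7% higher and 16% lower; median -0.79, all genes -0.02). Vnn1 showed a gap of -2.16 (SE 0.44, adjusted p = 8.35e-05), Cpt2 of -1.15, Ehhadh of -1.09 (SE 0.20), Ppara of -0.94, Cpt1a of -0.87 and Hadha of -0.80 (SE 0.09, adjusted p = 8.23e-11). Bdh1 (-1.30) and Fabp1 (-1.23) showed gaps of -0.61 and -0.75 without the 11-week Npc1-/- mouse 4 and remained past the threshold.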

How the data were processed

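The authors deposited 1 table of log2 expression values for 35556 probe sets on 78 arrays. The submitters' processing notes name RMA and Partek 6.5 but give no roles, and how arrays were scaled is not given in the sources used here. Total RNA had been extracted with TRIzol and RNeasy columns, per the labels' protocols. Array medians of the log2 values as deposited were 5.35 to 5.65, and single values reached from 1.79 to 14.6. The number of arrays limits the precision.

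Probe sets were named through the platform's probe table (21789 with 1 symbol, 1621 with several, 12146 not listed). Of the 34 genes, Hadhb alone had 2 probe sets. Samples were grouped by their labels, which name biological replicates. The sample names give no litter, and litter was not a term in any fit. Differences were estimated with limma 3.58.1 (lmFit, 1 mean per group, eBayes) in R 4.3.3, within the age series (48 arrays), the 12-week set (30 arrays) or, to set genotype against oligo, all 78. A gene was tested when at least 4 arrays exceeded 5.54, the overall median. Tests were two-sided, with Benjamini-Hochberg adjustment over all genes of a comparison, and adjusted p under 0.05 was the threshold. Between 11900 and 12748 genes were tested.

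The members, the other pathway and marker lists and the comparisons were chosen with earlier results of these data known. Values per mouse are given for Ppara, Cpt1a, Hadha, Ehhadh and Bdh1 and for genes with the largest changes; of the other pathway lists up to 4 genes past the threshold with the largest change are named, and Npc1 checks the labels. The procedure was tested on simulated data. Alternatives were no filter and a stricter one (60th percentile, 6.18), quantile normalization, centring on array medians, an intensity trend with a robust prior, a fit of only the compared groups, replicate numbers as blocks, averaging a gene's probe sets, and arrays left out singly. Further alternatives left out 1-week Npc1-/- mouse 3 and 3-week Npc1+/+ mice 1 and 2, which carry markers of another organ, and 1-week Npc1+/+ mice 3 and 4, whose sample names are numbered apart.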

Additional observations from a re-analysis of the deposited data

Results flagged for a closer look

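In single groups, 1 mouse stood apart from the others by Dixon's criterion in 26 of 450 sets of values (5.78%), where chance alone marks about 1 in 20. Among 11-week Npc1-/- mice, mouse 4 was low for Bdh1 (7.38) and Fabp1 (10.07). Among 7-week Npc1-/- mice, mouse 4 was high for Crot (12.00), Pdk4 (8.84) and Hadha (10.73) and mouse 3 low for Cpt1a (10.39). Other Npc1-/- mice apart from their group were 1-week mouse 3 for Bdh1 (10.71), 3-week mouse 4 for Etfa (11.39) and for the mean of the receptor and other targets (9.61), and 5-week mouse 4 for Ehhadh (11.05). In Npc1+/+ mice of 1 week, mouse 3 was low for Cpt1a (11.13) and mouse 4 for Pex11a (7.41). At 3 weeks, mouse 1 was low for Fabp1 (12.85) and mouse 2 for the mitochondrial mean (11.07), the 2 arrays with pancreatic markers. At 5 weeks, mouse 2 was high for the import mean (10.19) and the peroxisomal mean (11.04), mouse 3 low for Cyp4a14 (11.04) and mouse 4 high for Cyp4a10 (10.86). At 7 weeks, mouse 4 was high for Crat (9.01) and the peroxisomal mean (10.99).

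In the 12-week set, Crot was high in control oligo mouse 1 (12.51), Hadhb was high (11.48) and Cyp4a14 low (12.51) in Npc1 oligo mouse 1, and with NAC Cpt1a was low in Npc1 oligo mouse 3 (11.22) and Slc25a20 (10.70) and Abcd3 (11.49) high in mouse 2. Without that mouse 2 Abcd3 differed by 0.11 between the oligos with NAC (adjusted p = 0.224) in place of 0.19 (adjusted p = 0.0482); the call was also lost without any 1 of control oligo mice 2 to 5 or Npc1 oligo mouse 5 (adjusted p up to 0.115).

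Effects that differed between groups by a test of the difference were the following. The genotype difference varied over the ages in 24 genes (27.7% of all genes called). F was 13.1 for Abcd3, 12.5 for Decr1, 8.93 for Hadha, 3.44 for Ehhadh and 3.32 for Bdh1. From 1 to 3 weeks it changed in 1 gene, Acadl (0.48, limma adjusted p = 0.0344), with 2.01% of all genes called. That call was lost in 11 of the 16 single omissions. The NAC by oligo interaction passed in 10 genes (4.83% of all genes called), among them Cyp4a10 (1.25), Acaa1b (0.99), Ehhadh (0.73) and Ppara (0.49). Cyp4a10 missed the threshold with only the compared groups in the fit. The 11-week genotype difference and the oligo difference were unlike in 32 genes (27.7% of all genes called). The gaps were -2.16 for Vnn1, -1.30 for Bdh1, -1.09 for Ehhadh, -0.94 for Ppara, -0.87 for Cpt1a and -0.80 for Hadha.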

How the results depend on the processing

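Of 316 pairs of a gene and a comparison past the threshold, 257 kept the call whichever single mouse was left out and 244 under all other alternatives run. Counts of the 34 genes past the threshold moved by over 1.5 times as follows. For genotype at 1 week (8) there were 5 without a filter or without 1-week Npc1+/+ mice 3 and 4, and 3 without 1-week Npc1-/- mouse 3. For genotype at 3 weeks (2) there were 4 with quantile normalization (3 higher, 1 lower) or only the compared groups, and 1 without 3-week Npc1+/+ mice 1 and 2. For genotype at 5 weeks (1) there were 2 with the stricter filter or the replicate block (1 higher, 1 lower), and 2 with only the compared groups (2 higher, 0 lower, Eci2 not among them). The change of the genotype difference from 1 to 3 weeks (1) gave 5 with only the compared groups, and 0 without a filter or without any of these 3 sets of mice. From 3 to 5 weeks, Npc1+/+ mice (2) gave 1 without 3-week mice 1 and 2, and Npc1-/- mice (2) gave 4 with quantile normalization (1 higher, 3 lower) and 1 with only the compared groups. Fasting (3) gave 5 with quantile normalization or an intensity trend. With only the compared groups, control oligo against untreated (8) gave 5, NAC under the control oligo (13) gave 8 and the interaction (10) gave 5; NAC under the Npc1 oligo (4) gave 2 without a filter. From 1 to 3 weeks in Npc1+/+ mice the split of 5 higher and 10 lower became 7 and 9 with arrays centred.

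Leaving out single mice gave counts of 3 to 9, 1 to 3, 0 to 3, 18 to 23, 9 to 13 and 28 to 30 for genotype at the 6 ages in order, 30 to 31 for their mean and 21 to 27 for their variation. In Npc1+/+ mice the counts were 21 to 24 for age, 12 to 14, 1 to 2 and 0 to 0 for the 3 age steps, and in Npc1-/- mice 7 to 9, 1 to 3 and 19 to 24. The genotype by age tests gave 0 to 1 each. In the 12-week set they were 1 to 3 (fasting), 6 to 9 (control oligo), 14 to 17 and 23 to 26 (Npc1 oligo without and with NAC), 9 to 13 and 2 to 5 (NAC), and 9 to 12 (interaction), and 32 to 32 for genotype minus oligo.

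In 0 of 9 pairs of groups was every same-number correlation over 0.1, and single correlations ran from -0.243 to 0.286. Pairing of only some of the mice would also miss this criterion, so it does not settle whether some same-numbered mice deviated together. With the replicate block 30 genes passed at 11 weeks, 22 at 7 weeks and 16 under the Npc1 oligo. Acadvl and Etfb, 3 against 1 week in Npc1+/+ mice, reversed to -0.0295 and -0.0236 without 1-week mice 3 and 4; the cause was not tested.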
